A study of Mus musculus with 6 samples.

Results

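Interferon response and MHC class I genes were followed across the libraries of K19 Itga3 WT and K19 Itga3 KO keratinocytes. The set holds 38 mouse genes chosen by symbol, of which 37 were found among the 22295 genes of the count table; Ifit3 was not matched by symbol or identifier and is not analysed here. RNA had been sequenced from GFP-positive keratinocytes sorted from the epidermis of mice bred on FVB (FVB/N in the study's methods), with 3 WT and 3 KO libraries. WT mice carried the tamoxifen-inducible K19 Cre-ERT and the mTmG reporter, and KO mice carried in addition the floxed Itga3 alleles (Itga3 fl/fl), so that GFP marks cells in which Cre had been active and their progeny. Both genotypes received tamoxifen at 6 weeks of age (10 mg/ml, given over 4 days), 1 dose of the carcinogen DMBA at 7 weeks (30 µg in 200 µl) and then repeated doses of the tumor promoter TPA (12.34 µg in 200 µl). No library from untreated skin was included, so the levels below are those of treated skin in both genotypes. The sort kept cells of the K19 lineage, a minority of the epidermis that is centred on the hair bulge, and fewer cells of a type cannot be told apart from less RNA per cell in such bulk libraries.

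Interferons bind their receptors and, through JAK kinases, activate transcription factors such as STAT2 and IRF9, which enter the nucleus and induce interferon-stimulated genes. These genes encode sensors of viral RNA, transcription factors that feed the response, antiviral effectors, and the machinery that cuts proteins into peptides (immunoproteasome), moves the peptides into the endoplasmic reticulum (TAP) and displays them on MHC class I molecules. Keratinocytes keep a basal level of many of them and raise them strongly when exposed to interferon, and NLRC5 is the transactivator that maintains the MHC class I genes.

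The stretches around the transcription start differed between these genes in the motif cores they held. The interferon-stimulated response element (ISRE) binds complexes that hold STAT2 and IRF9, and other IRF factors, and the gamma-activated site (GAS) binds STAT dimers. The cores searched were GAAANNGAAA for the ISRE and TTCNNNGAA for the GAS, on both strands of the 300 bases around each RefSeq start (build GRCm38.p6). Of the 38 members 30 had a promoter entry. The ISRE core was found in 10 of these (33.3%; B2m, Bst2, Ddx58, Eif2ak2, Ifih1, Ifit1, Ifit3, Isg15, Rsad2 and Stat2), and in 3.99% of the 27025 genes with an entry. The GAS core was found in 6 (20%; Bst2, Eif2ak2, Ifi35, Ifit2, Irf1 and Psmb8), and in 9.55% of all genes with an entry. The ISRE cores of Ifih1, Ddx58 and Eif2ak2 began after the start, and the GAS core of Ifi35 was not within the 250 bases before it. Irf1 and Ifit2 each had another entry without either core. These letter matches are descriptions and do not show binding. The 250 bases before the start are printed 5′ to 3′ on the strand of the gene, with the matched cores in capitals, for 3 genes with an ISRE core (Isg15 at chr4:156200819-156201068 on the minus strand, with 3 overlapping cores; Ifit1 at chr19:34640639-34640888 on the plus strand, with 2; B2m at chr2:122147437-122147686 on the plus strand, with 1), for Irf1 with its GAS core (chr11:53769764-53770013, plus strand) and for Xaf1, the member that passed the test as higher in KO, which held neither core in this window (chr11:72301379-72301628, plus strand).
Isg15: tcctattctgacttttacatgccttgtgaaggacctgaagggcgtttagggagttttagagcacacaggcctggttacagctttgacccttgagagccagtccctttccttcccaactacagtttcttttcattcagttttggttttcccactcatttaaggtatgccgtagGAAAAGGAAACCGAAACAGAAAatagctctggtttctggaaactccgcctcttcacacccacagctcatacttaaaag
Ifit1: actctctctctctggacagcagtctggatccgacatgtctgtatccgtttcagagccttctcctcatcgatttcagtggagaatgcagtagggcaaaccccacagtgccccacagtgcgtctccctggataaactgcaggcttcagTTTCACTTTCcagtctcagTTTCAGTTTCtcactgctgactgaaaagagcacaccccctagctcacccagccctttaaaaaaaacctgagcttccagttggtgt
B2m: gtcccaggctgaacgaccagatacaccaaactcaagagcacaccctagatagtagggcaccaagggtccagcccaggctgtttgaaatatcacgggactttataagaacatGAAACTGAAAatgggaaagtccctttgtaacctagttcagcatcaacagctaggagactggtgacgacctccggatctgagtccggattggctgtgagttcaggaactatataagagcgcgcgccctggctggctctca
Irf1: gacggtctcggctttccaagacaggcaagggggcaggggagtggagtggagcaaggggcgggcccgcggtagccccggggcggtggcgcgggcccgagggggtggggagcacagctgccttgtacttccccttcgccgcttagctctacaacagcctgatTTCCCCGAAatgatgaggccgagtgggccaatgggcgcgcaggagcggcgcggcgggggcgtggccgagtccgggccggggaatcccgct
Xaf1: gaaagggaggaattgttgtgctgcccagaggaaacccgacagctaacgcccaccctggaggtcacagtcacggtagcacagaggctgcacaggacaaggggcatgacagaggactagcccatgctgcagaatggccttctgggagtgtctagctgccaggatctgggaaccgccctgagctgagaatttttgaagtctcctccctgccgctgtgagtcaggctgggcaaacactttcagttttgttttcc

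Levels are given in CPM, the count of a gene relative to the total of its library, scaled by TMM factors, the edgeR correction for library composition. Depth was 20578309 to 23670507 counts per library, and 3 counts, taken as the floor of detection, corresponded to 0.128 to 0.145 CPM. The columns show the genotype but no sample number, and letters (WT a to WT c, KO a to KO c) were given by column order. Itga3 itself stood at 371, 252 and 271 CPM in WT and 131, 124 and 134 CPM in KO libraries and fell, with a log2 fold change of −1.20 (adjusted p = 0.00283 in edgeR, standard error 0.13), with every KO library below every WT library. The log2 fold change was −1.27 without WT c and −1.21 without KO a, where the adjusted p was 0.130 and 0.0934. Keratinocyte and hair bulge markers led by Krt5 summed to 33279 to 50440 CPM, with the lowest sum in WT b. In this list Cd34, a marker of bulge cells, was called lower in KO, at 881, 806 and 872 CPM in WT and 399, 625 and 526 CPM in KO libraries (adjusted p = 0.0462, log2 fold change −0.72). Without WT b the log2 fold change of Cd34 was −0.76, with an adjusted p of 0.0685 in edgeR. DESeq2 also called Cd34, and limma-voom did not. Leukocyte markers summed to between 2.81 and 4.30 CPM in all 6 libraries. WT b stands apart: its counts differed from those of every other library by a chi-square of 29.7 to 72.5 per degree of freedom, against 10.8 to 50.2 among the other pairs, and it held the highest or the lowest level of more genes than any other library. Values without WT b are therefore given beside the results that it moves.

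Of the 37 members, 33 had a mean count of at least 10 over the 6 libraries. Rsad2, Ifi44, Cmpk2 and Rtp4 did not, and their CPM were between 0 and 0.353 in every library. Rsad2 and Ifi44, strongly interferon-induced antiviral genes, had at most 2 counts in any library, and their fold changes are not read. To compare genes with each other, CPM were divided by the length of the merged exons in kilobases. On this scale B2m was the most abundant member, with 489 ± 125 in WT and 372 ± 26.1 in KO libraries (SD, n = 3), followed by H2-D1 (396 ± 69.7 and 300 ± 14.3) and H2-K1 (164 ± 27.2 and 135 ± 5.12). In WT libraries Tapbp stood at 42.8 ± 2.96, Tap2 at 26.2 ± 5.43, Irf1 at 19.1 ± 2.20 and Tap1 at 18.9 ± 5.21 CPM per kilobase. Irf1 and Tap1 did not differ from each other beyond their spread. Some antiviral effectors lay far lower, at 0.250 ± 0.0602 for Ifit1, 0.210 ± 0.0931 for Ifit2 and 1.44 ± 0.679 for Isg15 in WT libraries. Other effectors lay higher, at 6.12 ± 0.250 for Bst2, 6.09 ± 0.630 for Eif2ak2 and 4.32 ± 3.22 for Ifi27l2a. The class I chains were therefore the most abundant transcripts of the set per length.

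**Figure D1:**
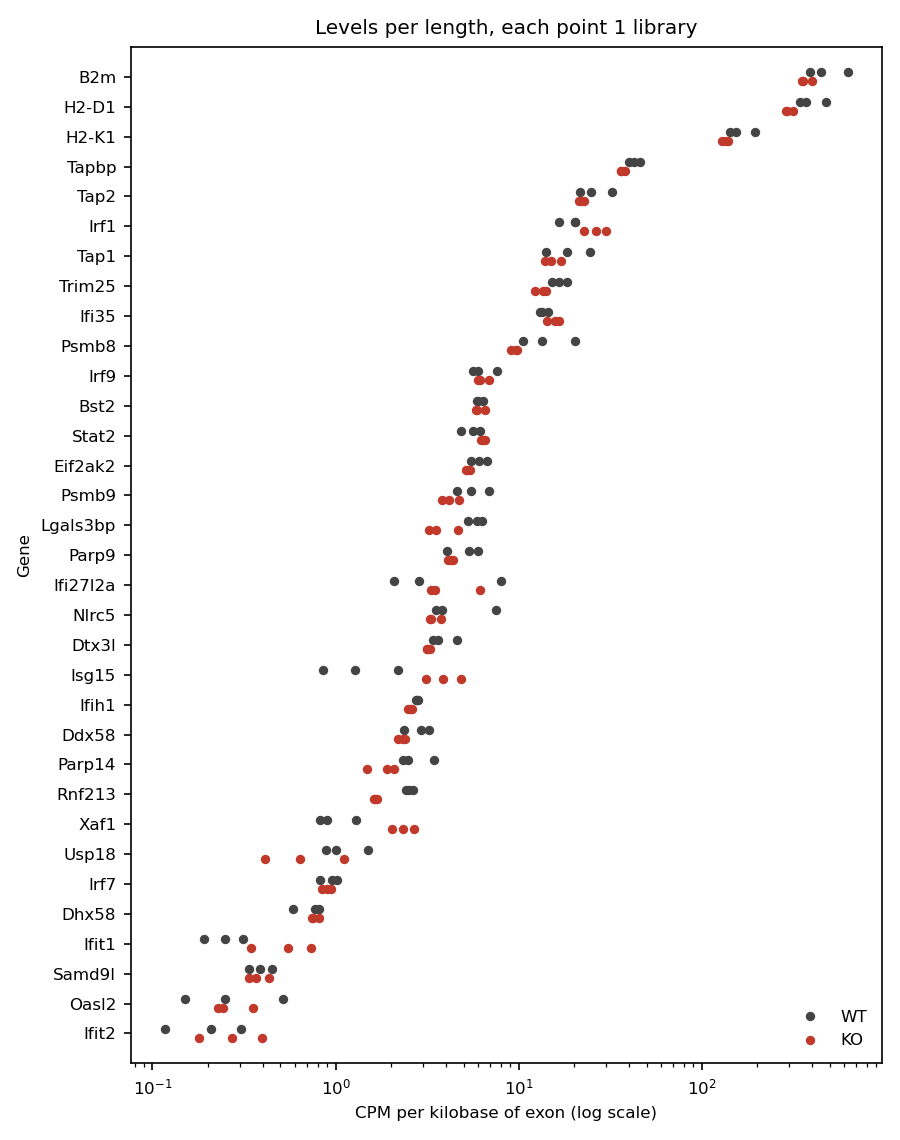
Level of the 33 members with a mean count of at least 10, in CPM per kilobase of exon on a log axis, each point 1 library (grey WT, red KO, 3 each), ordered by mean level. B2m, H2-D1 and H2-K1 lie highest, and Ifit2, Oasl2 and Samd9l lie lowest.

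Across all genes 100 of 21681 passed an adjusted p below 0.05 as higher in KO (0.461%) and 46 as lower (0.212%), in edgeR's quasi-likelihood test with Benjamini-Hochberg adjustment over all genes tested. Among the 37 members 1 passed in each direction: Xaf1 rose and Rnf213 fell. At an unadjusted p below 0.05, 4 members were higher in KO (5.58% of all genes tested were) and 11 members, or 29.7%, were lower (5.97% of all genes tested were). Without WT b 6 members (16.2%) were lower at this unadjusted p, against 4.51% of all genes tested. Of the 33 members with a mean count of at least 10, 5 had all KO libraries above all WT libraries (15.2%; 10.7% of the 13778 genes past the same filter did), namely Stat2, Irf1, Xaf1, Ifit1 and Isg15. In the other direction 11 members had all KO libraries below all WT libraries (33.3%; 11% of all genes past the filter did), namely Ifih1, Eif2ak2, Trim25, Rnf213, Parp14, Dtx3l, Lgals3bp, Psmb8, Tapbp, H2-K1 and H2-D1. The median log2 fold change over the members was −0.22, and over all genes tested it was 8.82e-05. Without WT b the members' median was −0.09 and without WT a it was −0.36, so its size depended on which WT library was kept.

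**Figure D2:**
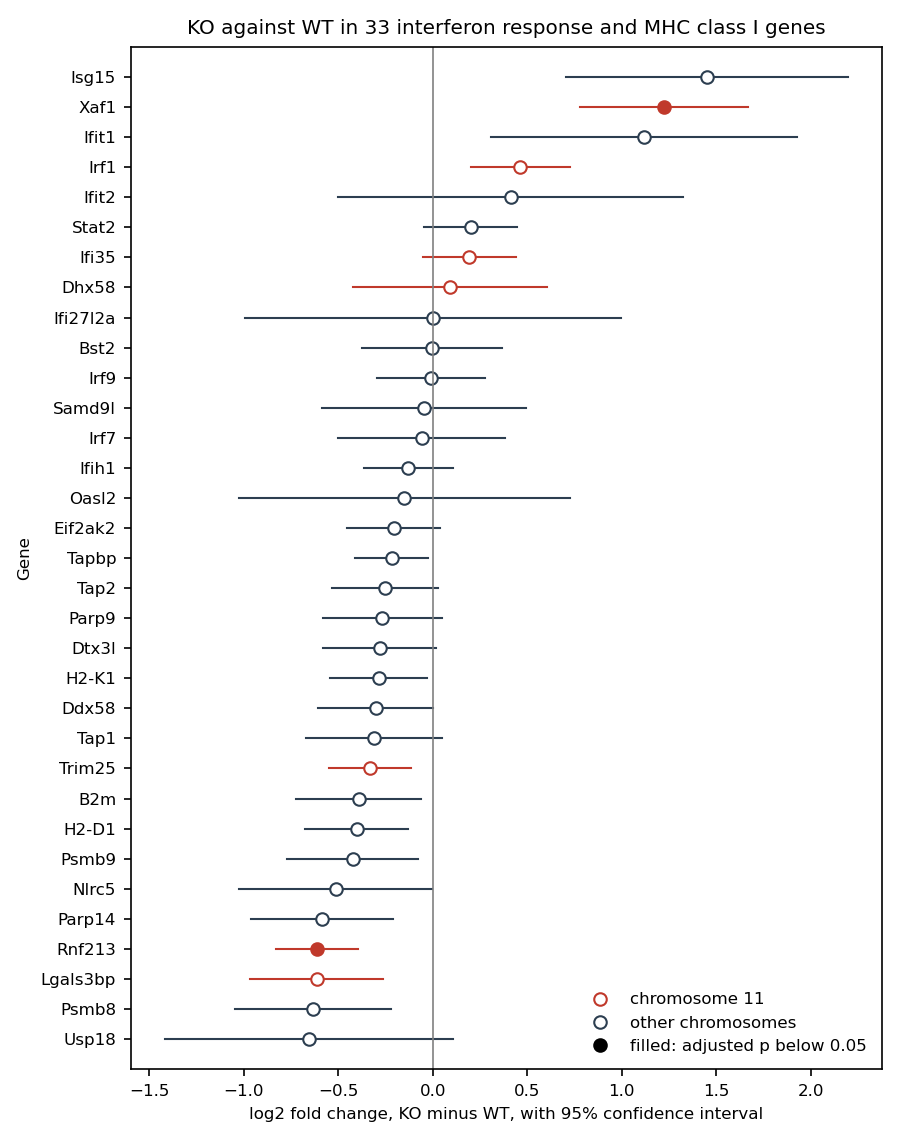
Log2 fold change (KO minus WT) of the 33 members with a mean count of at least 10, with 95% confidence intervals from edgeR, not adjusted for the number of genes; red marks genes on chromosome 11 and filled points an adjusted p below 0.05. Xaf1 (1.22) and Rnf213 (−0.61) are the filled points, and genes of the MHC class I pathway lie between −0.63 and −0.22. Other members, such as Lgals3bp, Parp14, Trim25 and Parp9, lie in the same range.

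MHC class I chains were lower on average in KO libraries, without passing the test. H2-D1, a heavy chain that presents peptides to CD8 T cells, had 885, 1225 and 954 CPM in WT and 745, 759 and 815 CPM in KO libraries (adjusted p = 0.202, log2 fold change −0.40, standard error 0.12). All KO libraries lay below all WT libraries, and WT b was the highest. H2-K1, the other classical heavy chain of the set, had 420, 573 and 455 CPM in WT and 400, 379 and 408 CPM in KO libraries (adjusted p = 0.375, log2 fold change −0.29, standard error 0.12). The groups did not overlap, although WT a lay close to KO c. B2m, the light chain shared by class I molecules, had 334, 541 and 386 CPM in WT and 305, 309 and 346 CPM in KO libraries (adjusted p = 0.335, log2 fold change −0.39, standard error 0.15). Its groups overlapped, with WT a below KO c. Without WT b the log2 fold changes of these chains were −0.25 for H2-D1, −0.14 for H2-K1 and −0.17 for B2m, still negative and smaller than with it. The authors counted uniquely mapped reads, and 6.68% of the 65-base windows of H2-D1 and 4.70% of those of H2-K1 also occur in transcripts of other genes, largely of the H2-Q and H2-T families, so both counts are uncertain by such reads. These windows were cut from GRCm38 reference transcripts, and the effect of differences between FVB alleles and the reference was not tested.

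The immunoproteasome and peptide-loading genes, like the chains, had WT b as their highest library and WT c next. Psmb8, a catalytic subunit of the immunoproteasome, had 35.9, 68.9 and 45.5 CPM in WT and 32.9, 30.9 and 33.2 CPM in KO libraries (adjusted p = 0.181, log2 fold change −0.63, standard error 0.19). The groups did not overlap, while the WT libraries were spread over a wider range than the KO libraries. Psmb9, another catalytic subunit, had 16.9, 25.3 and 20.2 CPM in WT and 13.9, 15.3 and 17.3 CPM in KO libraries (adjusted p = 0.310, log2 fold change −0.42, standard error 0.16), with WT a below KO c, and a log2 fold change of −0.26 without WT b. Without WT a Psmb8 passed the test (log2 fold change −0.82, adjusted p = 0.0195), and without WT b its log2 fold change was −0.33 (adjusted p = 0.358). The peptide transporter subunits Tap1 and Tap2 ranged from 76.96 to 134 and from 81.5 to 122 CPM in WT and from 76.0 to 92.8 and from 80.8 to 85.5 CPM in KO libraries, with log2 fold changes of −0.31 and −0.25 that were −0.08 and −0.08 without WT b. Tapbp, which encodes tapasin and holds class I molecules at the transporter, ranged from 145 to 166 CPM in WT and from 131 to 138 CPM in KO libraries (log2 fold change −0.22, and −0.17 without WT b). None of these 8 genes, the 3 chains and the 5 processing genes, was called by edgeR, limma-voom or DESeq2. At an unadjusted p below 0.05 in edgeR 6 were lower, as were 5.97% of all genes tested. In limma-voom 6 had an unadjusted p below 0.05, and of all 21681 genes tested 2553 did. The 8 genes were grouped after their values were seen. Their log2 fold changes were all negative, with a median of −0.35, which was −0.17 without WT b. In edgeR without WT b, 1 of the 3 chains and 1 of the 5 processing genes were lower at an unadjusted p below 0.05. Of all genes tested 4.51% were lower in that fit. WT b held the highest level of all 8 genes.

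NLRC5 showed the same library at the top. Nlrc5 had 32.4, 63.6 and 30.1 CPM in WT and 28.0, 28.1 and 32.1 CPM in KO libraries (adjusted p = 0.429, log2 fold change −0.51, standard error 0.23). The value of WT b was far above the other 5 libraries, which lay within 28.0 to 32.4 CPM, and without it the log2 fold change was −0.09. The difference between genotypes in Nlrc5 thus rested on 1 library.

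**Figure D3:**
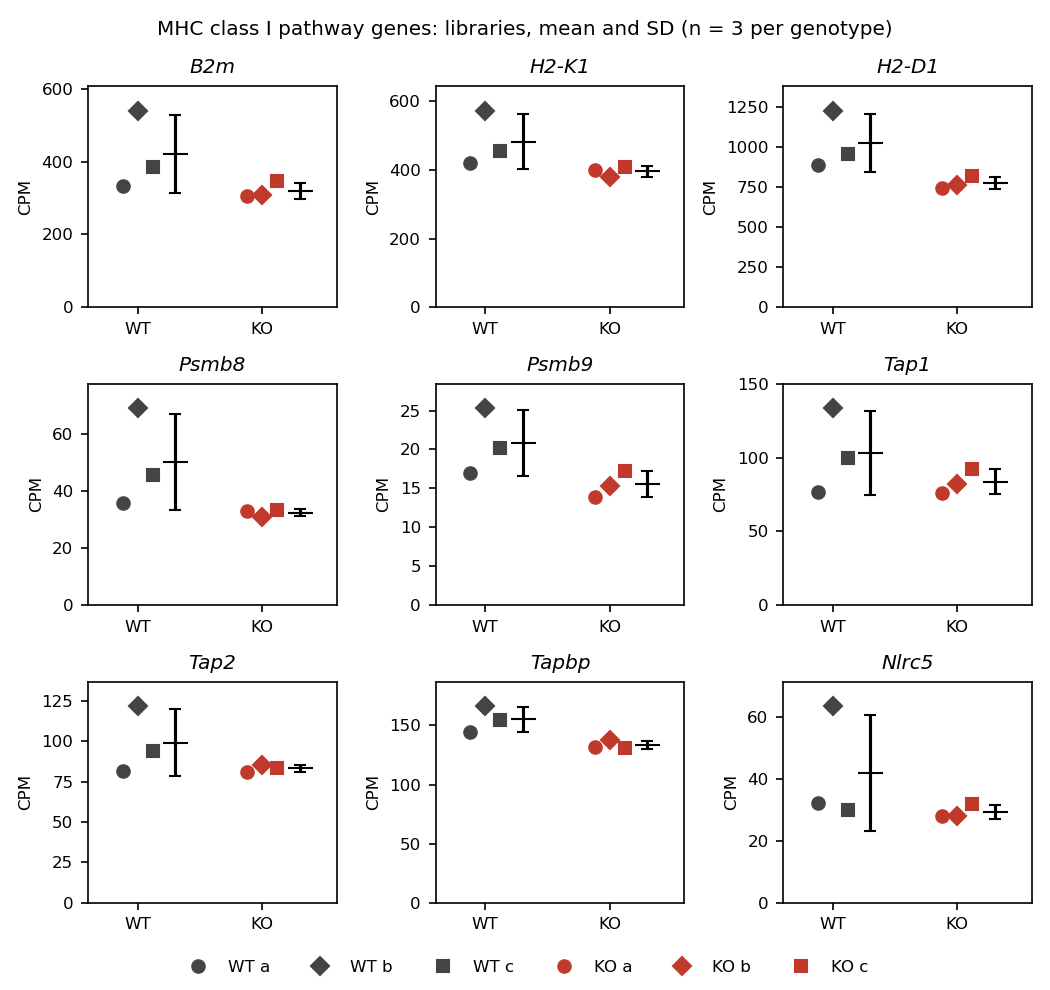
CPM of 8 genes of MHC class I display and of their transactivator Nlrc5 in each library (circles a, diamonds b, squares c; grey WT, red KO), with the mean and SD of each genotype (n = 3) beside the points and the vertical axes starting at 0. In all 9 genes the highest value is that of WT b, and in Nlrc5 the other 5 libraries lie within 28.0 to 32.4 CPM.

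Coordination across libraries was described by counting which library held the highest and the lowest level of each member. Of the 33 members 17 (51.5%) were highest in WT b, against 24.6% of the 13778 genes past the same filter, and none was lowest there, against 27.9% of all genes. WT a was the lowest library for 12 members (36.4%; 16.5% of all genes) and KO a for 13 (39.4%; 21.7% of all genes). In WT b the members lay a median of 0.21 above their own mean over the 6 libraries on the log2 scale, and the 8 MHC class I genes lay 0.48 above it. Of the 25 members other than these 8 genes, 9 (36%) were highest in WT b. With library sizes alone in place of TMM factors 18 members (54.5%) were highest in WT b, against 31.1% of all genes. Outside the MHC class I pathway WT b was also the top library for Oasl2 (0.964, 3.30 and 1.59 CPM in WT libraries), an oligoadenylate synthetase-like antiviral protein, and for Ifi27l2a (0.964, 3.71 and 1.32 CPM). Leukocyte markers summed to 3.80 CPM in WT b against 4.13 and 4.28 in the other WT libraries, Langerhans and dendritic cell markers to 1.97 against 2.29 and 3.35, and MHC class II genes to 25.6 against 30.2 and 34.7. Macrophage and neutrophil markers summed to 5.50 CPM in WT b against 5.14 and 4.59, with Lyz2 not above the floor in any library. The part of such cells in the level of WT b was not tested. The same 6 libraries lie behind every gene, so the members are not independent, and no test was made on these counts.

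**Figure D4:**
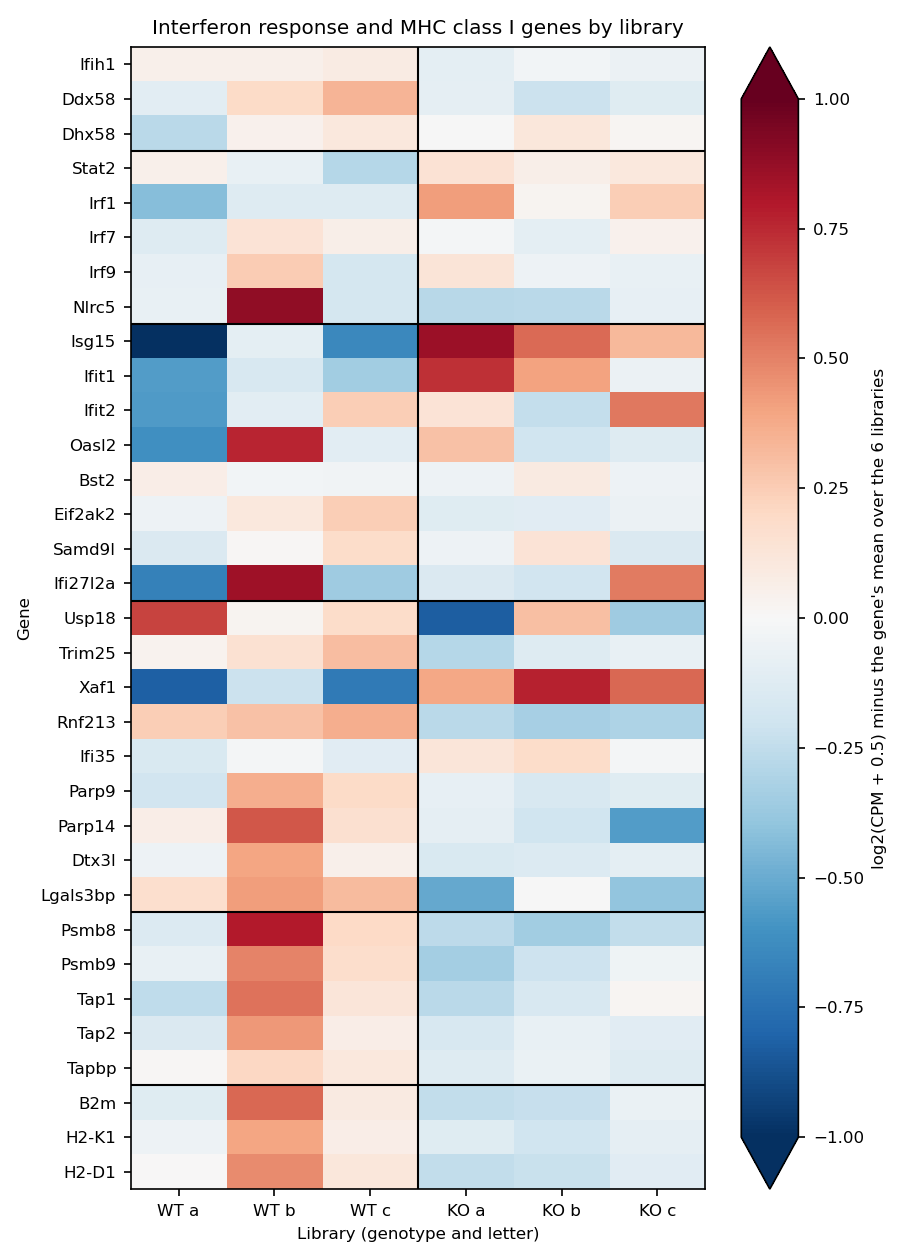
Deviation of each member from its own mean over the 6 libraries, as log2(CPM + 0.5), for the 33 members with a mean count of at least 10; horizontal lines separate, from top to bottom, sensors, transcription factors, antiviral effectors, modifiers and signalling regulators, immunoproteasome and peptide loading, and MHC class I chains. The WT b column is red throughout the lowest 8 genes, and Isg15, Ifit1 and Xaf1 are blue in the WT and mostly red in the KO columns.

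Antiviral effectors did not move together. Isg15, a ubiquitin-like modifier that is attached to proteins during the interferon response, had 0.642, 1.65 and 0.970 CPM in WT and 3.66, 2.91 and 2.37 CPM in KO libraries (adjusted p = 0.0861, log2 fold change 1.45, standard error 0.34). All KO libraries were above all WT libraries, at low counts. Ifit1, which binds viral RNA that lacks the host cap methylation, had 0.505, 0.824 and 0.661 CPM in WT and 1.96, 1.45 and 0.919 CPM in KO libraries (adjusted p = 0.236, log2 fold change 1.12, standard error 0.37), again without overlap. Isg15 passed the test without WT b (log2 fold change 1.88, adjusted p = 0.0382) and in DESeq2 (adjusted p = 0.0146), and Ifit1 passed under no setting tried. Ifit2, a relative of Ifit1, overlapped between the genotypes (log2 fold change 0.41, standard error 0.42). Bst2, the tetherin that holds budding viruses at the cell surface, lay at 5.52 ± 0.226 CPM in WT and 5.51 ± 0.342 CPM in KO libraries (SD, n = 3), with a 95% interval of the log2 fold change from −0.37 to 0.37. Eif2ak2, the kinase PKR that halts translation on double-stranded RNA, ranged from 27.9 to 34.4 CPM in WT and from 26.5 to 27.8 CPM in KO libraries (log2 fold change −0.21, adjusted p = 0.540). Oasl2, Samd9l and Ifi27l2a had log2 fold changes of −0.15, −0.04 and 0.00, and their intervals spanned at least −0.58 to 0.50. Without WT b the values of Oasl2 and Ifi27l2a were 0.46 and 0.80. Of the 12 effectors in the table none was called by edgeR or limma-voom, and DESeq2 called Isg15. At an unadjusted p below 0.05 in edgeR 2 were higher, as were 5.58% of all genes tested. In limma-voom 2 had an unadjusted p below 0.05, and of all 21681 genes tested 2553 did.

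Among the transcription factors Irf1 and Nlrc5 differed in opposite directions without passing the test. Irf1, an early interferon-gamma target that activates other interferon-stimulated genes, had 65.8, 80.8 and 80.9 CPM in WT and 119, 90.1 and 105 CPM in KO libraries (adjusted p = 0.117, log2 fold change 0.46, standard error 0.12). Every KO library was above every WT library, and DESeq2 called the gene (adjusted p = 0.0372). Stat2 ranged from 28.9 to 36.6 CPM in WT and from 36.8 to 38.9 CPM in KO libraries, also without overlap (log2 fold change 0.20, adjusted p = 0.554). Irf9, its partner, and Irf7, the factor that amplifies type I interferon, had log2 fold changes of −0.01 and −0.06, with 95% intervals from −0.29 to 0.28 and from −0.50 to 0.38. None of the RNA sensors was called. Ifih1 (MDA5) stood at 22.8 ± 0.315 CPM in WT and 20.8 ± 0.512 CPM in KO libraries (SD, n = 3), Ddx58 (RIG-I) at 20.01 ± 3.15 and 16.2 ± 0.758, and Dhx58 (LGP2) at 2.36 ± 0.383 and 2.52 ± 0.134. Their log2 fold changes were −0.13, −0.30 and 0.09, edgeR, limma-voom and DESeq2 called 0, and 0 had an unadjusted p below 0.05. The KO libraries of Ifih1 all lay below its WT libraries.

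Modifiers and signalling regulators held both members that passed. Rnf213 (ENSMUSG00000070327), a large ubiquitin ligase with activity against intracellular bacteria and viruses, had 40.9, 42.4 and 44.5 CPM in WT and 28.5, 27.3 and 27.7 CPM in KO libraries and fell by 0.61 on the log2 scale (standard error 0.10, adjusted p = 0.0236). The spread within either genotype was at most 1.81 CPM (SD), so that both groups were tight and far apart. Xaf1 (ENSMUSG00000040483), which antagonises the apoptosis inhibitor XIAP, had 3.85, 6.09 and 4.19 CPM in WT and 9.52, 12.6 and 10.9 CPM in KO libraries and rose by 1.22 on the log2 scale (standard error 0.20, adjusted p = 0.0248). The calls depended on the setting. Both passed in DESeq2 (adjusted p = 7.53e-06 for Rnf213 and 3.26e-05 for Xaf1), without WT a (0.0135 and 0.0189) and without WT b (0.0366 and 0.0118). In limma-voom the adjusted p was 0.0574 for Rnf213 and 0.0874 for Xaf1, and without WT c it was 0.267 and 0.368, without KO a 0.163 and 0.174, without KO b 0.0607 and 0.0563, and without KO c 0.119 and 0.113. The direction was the same over all 13 alternative fits, with log2 fold changes from −0.63 to −0.58 for Rnf213 and from 1.103 to 1.45 for Xaf1.

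Lgals3bp, a secreted galectin-binding glycoprotein, had 15.1, 18.05 and 16.8 CPM in WT and 9.27, 13.4 and 10.1 CPM in KO libraries (adjusted p = 0.122, log2 fold change −0.61, standard error 0.16), and DESeq2 called it (adjusted p = 0.0285). Parp14, an ADP-ribosyltransferase, had 21.6, 31.9 and 23.1 CPM in WT and 19.3, 17.8 and 13.8 CPM in KO libraries (adjusted p = 0.171, log2 fold change −0.59, standard error 0.17). Trim25, the ubiquitin ligase that acts in RIG-I signalling, had 87.8, 95.5 and 106 CPM in WT and 70.5, 78.3 and 81.4 CPM in KO libraries (adjusted p = 0.183, log2 fold change −0.33, standard error 0.10). In none of these genes did the genotypes overlap, and without WT b the log2 fold change of Parp14 was −0.39. Parp9 and Dtx3l, partners in a complex that modifies histones and viral proteins, had log2 fold changes of −0.27 and −0.28, which were −0.14 and −0.13 without WT b, and Parp9 overlapped where Dtx3l did not. Usp18, which removes ISG15 from proteins and damps receptor signalling, ranged from 2.47 to 4.18 CPM in WT and from 1.15 to 3.10 CPM in KO libraries (adjusted p = 0.528, log2 fold change −0.65, standard error 0.35). Ifi35 differed by 0.19 on the log2 scale (adjusted p = 0.571). Isg15 and Usp18, the modifier and its protease, therefore had fold changes of opposite sign, neither past the threshold.

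Both members that passed lie on chromosome 11, which also carries Itga3. Of the 1853 tested genes of chromosome 11, 31 were called in either direction (1.67%), and of the 19828 on other chromosomes 115 were (0.58%). Among members the counts were 2 of 7 on chromosome 11 and 0 of 30 elsewhere by edgeR. Of the 30 elsewhere, 2 were higher and 8 lower at an unadjusted p below 0.05 in edgeR. Of all genes tested 5.58% were higher and 5.97% lower at this p. Among the 30, limma-voom called 0 and DESeq2 called Isg15. The 7 members of chromosome 11 are Irf1, Xaf1, Trim25, Dhx58, Ifi35, Lgals3bp and Rnf213, at 5.65 to 41.3 Mb from Itga3, with Xaf1 at 22.7 Mb and Rnf213 at 24.3 Mb. Of these 7, 2 were higher and 3 lower in KO at an unadjusted p below 0.05, so the direction was mixed, whereas all 8 members of chromosome 17, which holds the mouse MHC, had negative log2 fold changes with a median of −0.30. Rnf213 spans chromosome 11, 119393100 to 119487418, and Xaf1 chromosome 11, 72301629 to 72313733, in the GRCm38 coordinates of the count table. The part of chromosomal position in these differences was not tested.

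The rest of the pathway was read from 7 further lists. Of 21 interferon genes listed, 4 were in the table (Ifnab, Ifne, Ifnk and Ifnl2) and none exceeded the floor of 3 counts in any library. Of 14 receptor and JAK-STAT genes 1 was called: Socs3, which inhibits JAK signalling downstream of several cytokines, had 254, 208 and 245 CPM in WT and 323, 332 and 379 CPM in KO libraries and rose by 0.55 on the log2 scale (standard error 0.11, adjusted p = 0.0453). Socs3 lies on chromosome 11 as well. DESeq2 also called it and limma-voom did not, and without WT b it did not pass in edgeR (log2 fold change 0.47, adjusted p = 0.0797). The type I receptor chains Ifnar1 (log2 fold change −0.03) and Ifnar2 (−0.06) and the interferon-gamma receptor chains Ifngr1 (−0.26) and Ifngr2 (0.07) were not called. Without WT b the log2 fold changes of Ifngr1 and Ifngr2 were −0.08 and 0.28.

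Of 56 other interferon-stimulated genes tested none was called by edgeR, limma-voom or DESeq2, while 15 (26.8%, against 5.97% of all genes) were lower and 2 higher in KO at an unadjusted p below 0.05 in edgeR. Their median log2 fold change was −0.33. Over the 37 with a mean count of at least 10 it was −0.31, and −0.20 without WT b, where 10 of 55 (18.2%, against 4.51% of all genes) were lower at an unadjusted p below 0.05. The smallest p was that of Mov10, an RNA helicase (18.2, 19.2 and 21.96 CPM in WT and 12.2, 14.3 and 15.7 CPM in KO libraries, log2 fold change −0.49, adjusted p = 0.155). Next came Trim34a (log2 fold change −1.03, adjusted p = 0.169), with a log2 fold change of −0.75 without WT b. Of 30 other MHC class I and antigen processing genes none was called by any of the 3 tools. In edgeR 7 (23.3%, against 5.97% of all genes) were lower at an unadjusted p below 0.05. The median log2 fold change of the 30 genes was −0.21. Over the 27 with a mean count of at least 10 it was −0.18, and −0.08 without WT b. In that fit 4 of 30 (13.3%, against 4.51% of all genes) were lower at an unadjusted p below 0.05. In this list H2-Q7, a non-classical class I gene that shares reads with its neighbours, had 34.4, 54.2 and 29.2 CPM in WT and 20.57, 25.0 and 28.1 CPM in KO libraries (log2 fold change −0.68, adjusted p = 0.181), with WT b again on top and a log2 fold change of −0.37 without it. Fcgrt, the neonatal Fc receptor, which pairs with B2m, had 21.3, 20.9 and 17.6 CPM in WT and 11.9, 16.2 and 14.6 CPM in KO libraries (log2 fold change −0.49, adjusted p = 0.181), without overlap. Of 11 MHC class II genes none was called by any of the 3 tools and 0 had an unadjusted p below 0.05 in edgeR or limma-voom, and H2-DMa and H2-DMb1 had log2 fold changes of −0.45 and −0.25. MHC class II genes, which mark professional antigen-presenting cells, summed to 25.6 to 34.7 CPM in WT and 23.3 to 32.4 CPM in KO libraries.

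Among 7 marker lists of other cell types, the fibroblast list was the one whose summed levels did not overlap between the genotypes. Fibroblast markers, led by Col1a1, summed to 137 to 180 CPM in WT and 49.2 to 92.1 CPM in KO libraries, and 7 of the 8 listed genes exceeded the floor. The list was mixed: 3 genes were lower and 2 higher at an unadjusted p below 0.05 in edgeR, which called 0. Of all genes tested 5.97% were lower and 5.58% higher at this p. DESeq2 called Col1a2 lower and Dcn higher, both named here after their values were seen. Without WT b edgeR called 1 gene of the list, Col1a1, as lower (log2 fold change −1.53, adjusted p = 0.0109). Dcn had the opposite sign in that fit (log2 fold change 2.40, adjusted p = 0.0813). The sum of the fibroblast markers was lowest among WT libraries in WT b, where the class I genes were highest. T and NK cell markers, led by Lck, summed to 2.93 to 3.75 CPM in WT and 3.52 to 4.40 CPM in KO libraries, with 7 of 12 genes, Cd3d, Cd4 and Cd8a among them, not above the floor. Leukocyte markers, led by Coro1a, summed to 3.80 to 4.28 CPM in WT and 2.81 to 4.30 CPM in KO libraries, Langerhans and dendritic cell markers, led by Csf1r, to 1.97 to 3.35 and 2.11 to 3.53, and macrophage and neutrophil markers, led by Cd68, to 4.59 to 5.50 and 3.19 to 7.03. Endothelial markers, led by Egfl7, summed to 8.98 to 12.7 and 7.44 to 9.004 CPM, and melanocyte markers, led by Dct, to 6.93 to 14.4 and 11.6 to 12.7 CPM. The part of these cells in the differences between genotypes was not tested.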

How the data were processed

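Polyadenylated RNA had been sequenced by the authors as stranded libraries with single reads of 65 bases. TopHat 2.1.0 with Bowtie 1.1 placed the reads on GRCm38, and a counter modelled on HTSeq assigned reads with a single match to genes by strand. The deposited values are raw counts per gene and library, neither normalized nor pooled.

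From the counts of 3 WT and 3 KO libraries, the 21681 genes not at 0 everywhere were compared in edgeR 4.0.16 (R 4.3.3, TMM factors, glmQLFit and glmQLFTest, Benjamini-Hochberg adjustment, threshold 0.05). Standard errors and intervals come from that fit, and calls of all other tools use the same threshold. Alternatives were limma-voom (limma 3.58.1), DESeq2 1.42.0, other scalings and filters, and fits that left out each library. Exact permutation tests of single genes cannot go below p = 0.1 with 3 against 3. The study describes 3 mice per genotype, and each column header carries a number of its own, so libraries were taken as separate mice. Exon lengths (22049 of 22295 genes) came from a GRCm38 annotation, and promoters from RefSeq. Counting limits cover counting error only, since reads carry no molecular identifiers. The fit was tested on simulated data.

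The members and all gene lists were chosen with earlier results of these data known. The genes named were all members, Itga3, called genes of each list or otherwise up to 2 with the smallest p, the receptor chains, and the most abundant gene of each marker list; the H2-Q genes and the constitutive proteasome subunits named by value serve as paired copies. A gene that the naming rule also held is not reported here. The combination of MHC class I chains with the processing genes was made after their values were seen. The genotype labels give tamoxifen by injection at the stated concentration, and the study's methods describe another schedule.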

Additional observations from a re-analysis of the deposited data

How the results depend on the processing

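Of the 37 members, 1 was called higher and 1 lower in KO (Xaf1 and Rnf213). The counts were 0 and 0 in limma-voom (unadjusted p below 0.05: 4 higher and 10 lower), after filterByExpr (4 and 9) and where every library had to reach 10 counts (4 and 9), 0 and 1 among protein-coding genes, and 3 and 2 in DESeq2. The calls over all genes moved as well. They were 13 higher and 11 lower in limma-voom, 8 and 7 after filterByExpr, and 8 and 4 with at least 10 counts. Among protein-coding genes they were 16 and 9, and in DESeq2 313 and 233. Under the study's limits on expression and fold change 0 members were higher and 1 was lower (Rnf213). Leaving out 1 library gave 0 to 2 in either direction, while over all genes 2 to 260 were called higher and 3 to 261 lower. The members' median log2 fold change ran from −0.36 to −0.085 over these fits, that of the 8 MHC class I genes from −0.48 (without WT a) to −0.17 (without WT b), and that of Itga3 ran from −1.31 to −1.01, with an adjusted p of 0.130 without WT c and 0.0934 without KO a. Non-overlapping members were 11 to 18 lower (18 without WT a, where 20.03% of all genes were; 10 with library sizes only) and 5 to 8 higher (8 without WT b, where 14.98% of all genes were).

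Signs turned in members near 0: Irf9 (0.0042) and Oasl2 (0.011) in limma-voom, Bst2 in DESeq2 (0.00078), and Ifi27l2a with library sizes only (−0.015), upper-quartile factors (−0.016), filterByExpr (−0.0054), at least 10 counts (−0.0083) and protein-coding genes (−0.0043). Leaving out 1 library moved Dhx58 from −0.029 to 0.18, Irf7 from −0.13 to 0.0084, Irf9 from −0.10 to 0.13, Oasl2 from −0.47 to 0.46, Bst2 from −0.044 to 0.038, Samd9l from −0.13 to 0.063, Rtp4 from −0.54 to 0.27 and Ifi27l2a from −0.34 to 0.80. The cause was not tested. Genes near the floor, such as Ifit1, carry wide intervals at this depth. No paired analysis was possible because the columns carry a genotype but no sample number.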

Other observations

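The 14 genes listed for the constitutive proteasome core did not lie lower in KO libraries. Among them, Psmb5 and Psmb6 encode the catalytic subunits that those of Psmb8 and Psmb9 replace during interferon exposure. All 14 genes had positive log2 fold changes, with a median of 0.11. None was called by edgeR, limma-voom or DESeq2. At an unadjusted p below 0.05 in edgeR 1 was higher, as were 5.58% of all genes tested, and in limma-voom 0 had such a p. Without WT b the median log2 fold change of the 14 genes was 0.047, and Psma5 (−0.0099) and Psmb1 (−0.016) were negative. Psmb5, the constitutive counterpart of Psmb8, had 64.98, 51.8 and 60.9 CPM in WT and 73.2, 62.8 and 63.1 CPM in KO libraries (log2 fold change 0.16, adjusted p = 0.636). Psmb6, the counterpart of Psmb9, had 116, 92.6 and 113 CPM in WT and 128, 110 and 117 CPM in KO libraries (log2 fold change 0.14, adjusted p = 0.671). In both genes WT b was the lowest library, where Psmb8 and Psmb9 were highest, and without it the log2 fold changes were 0.08 and 0.05. Psma3 had the smallest p of the list (log2 fold change 0.23, adjusted p = 0.425).

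Upstream of the response, of 19 genes for nucleic acid sensors, adaptors and IRF factors none was called by edgeR, limma-voom or DESeq2. At an unadjusted p below 0.05 in edgeR 2 were higher and 1 lower, against 5.58% and 5.97% of all genes tested. In limma-voom 2 had an unadjusted p below 0.05, and of all 21681 genes tested 2553 did. Myd88, the adaptor of most Toll-like receptors, had 47.0, 48.8 and 49.2 CPM in WT and 73.1, 53.3 and 52.0 CPM in KO libraries (log2 fold change 0.30, adjusted p = 0.396), without overlap and with KO a far above the rest. Ikbke, a kinase that activates IRF factors, had 21.7, 32.2 and 27.0 CPM in WT and 16.3, 22.5 and 23.1 CPM in KO libraries (log2 fold change −0.39, adjusted p = 0.411). Without WT b its log2 fold change was −0.24.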
